A study of Arabidopsis thaliana with 21 samples.

Results

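The genes described here are the auxin-responsive SAUR (small auxin up RNA) and Aux/IAA genes of Arabidopsis seedlings. They were taken from the gene table by name (SAUR or IAA followed by a digit) or by a description that mentions SAUR or small auxin up RNA, and kept where at least 10 counts were found in 3 or more libraries. The rule matched 107 of 32833 genes, 40 of them by name and 82 by description, and 86 were kept. Of these 86, 64 were SAUR genes, 20 were Aux/IAA genes and 2 were neither. A filter on low counts left 85 of them among the 20234 genes tested, since SAUR70 was too low.

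RNA-seq of poly-T selected mRNA was made from seedlings of 7 days in 21 libraries, 3 for each of 7 groups. In growth light (GL, 100 µmol m-2 s-1) the groups were wild-type Col-0 (WT), the hy5 mutant, and 3 lines that carry a 35S:HY5-GFP transgene: HY5K87K-GFP in hy5-1, HY5K87Q-GFP in hy5-1 and HY5K87R-GFP in hy5-2. WT and hy5 were also sampled after 2 h of high light (HL, 500 µmol m-2 s-1), and the GL libraries after the same time in the control condition. HY5 is a bZIP transcription factor that promotes development in light, and the series asks how acetylation of a lysine of HY5 affects its function under high light. The K87K line keeps the lysine, the K87Q line has glutamine there, which is commonly used as a stand-in for acetylated lysine, and the K87R line has arginine, which cannot be acetylated. The allele of the hy5 samples is not given in the sources used here, so the K87R line may have another hy5 allele than its control. Where K87R is compared with K87K or K87Q, the residue and the hy5 allele (hy5-2 against hy5-1) cannot be told apart. The 35S promoter is active in most tissues rather than in the cells that normally express HY5, and the labels do not say how many independent transformants each line stands for. The labels call the replicates biological, without saying whether they came from separate plantings.

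Auxin acts by bringing Aux/IAA proteins to the TIR1/AFB receptors, which mark them for breakdown; the Aux/IAA proteins otherwise repress the auxin response factors (ARFs). Many SAUR and Aux/IAA genes are themselves rapidly induced through ARFs. SAUR proteins of the SAUR19 kind inhibit PP2C.D phosphatases, which keeps plasma membrane proton pumps active and lets the cell wall loosen. In seedlings these genes are known for their part in hypocotyl elongation, cotyledon opening, tropisms and root branching.

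Of the SAUR genes, 30 lay in 6 tandem groups (3 or more SAUR genes with gaps of at most 20000 bases): SAUR61 to SAUR66 with AT1G29490 and SAUR68 on chromosome 1, SAUR6, SAUR7 and SAUR12 on chromosome 2, SAUR26 to SAUR29 on chromosome 3, SAUR1, SAUR3, SAUR4, SAUR5, SAUR49 and SAUR50 together and SAUR14 to SAUR16 together on chromosome 4, and SAUR19 to SAUR24 on chromosome 5. The other 34 were not in such a group. In the TAIR10 annotation 63 of the 64 SAUR genes had 1 coding exon, while the Aux/IAA genes had 2 to 6. The coding sequences of SAUR19 to SAUR24 matched each other over a median of 92.7% of bases (88.6% to 95.9% over 15 pairs), and SAUR19 and SAUR21 shared an unbroken stretch of 86 bases. In the chromosome 1 group the median was 83.2%, and SAUR63 and SAUR68 shared 91 bases. Reads from such stretches can be split or lost between neighbours, so the values of single genes in these groups are less certain than their sums. The start of the 6 coding sequences is shown because the highest identity between members lies in this group; capitals mark the 8 positions at which the 6 differ, and SAUR19 and SAUR24 are identical over this stretch. Coordinates are TAIR10.
SAUR19 (chr5:5963252-5963305, minus strand): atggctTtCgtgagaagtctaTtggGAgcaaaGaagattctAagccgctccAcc
SAUR20 (chr5:5966527-5966580, minus strand): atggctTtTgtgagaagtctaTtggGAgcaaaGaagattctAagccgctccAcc
SAUR21 (chr5:5968527-5968580, plus strand): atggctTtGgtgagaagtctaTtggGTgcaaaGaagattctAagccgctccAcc
SAUR22 (chr5:5974910-5974963, minus strand): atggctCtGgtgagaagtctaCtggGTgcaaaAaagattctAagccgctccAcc
SAUR23 (chr5:5976030-5976083, plus strand): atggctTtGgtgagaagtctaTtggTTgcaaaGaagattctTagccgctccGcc
SAUR24 (chr5:5983840-5983893, plus strand): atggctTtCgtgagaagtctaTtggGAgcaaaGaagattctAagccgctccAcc

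Of the 20 Aux/IAA genes, 15 encoded the core of the degron, the stretch through which the receptor binds: glycine, tryptophan, proline, proline and then valine or isoleucine. The other 5 were IAA10, IAA30, IAA31, IAA32 and IAA34, and of these IAA10 has the same first residues followed by leucine. The coding bases around the core are shown for the Aux/IAA genes that the results turn on, with the core's 5 codons in capitals.
IAA14 (chr4:8349478-8349504, minus strand): gtggtgGGTTGGCCACCGGTGaggaac
IAA16 (chr3:1289730-1289756, minus strand): gttgtgGGATGGCCACCGGTAcgatct
IAA28 (chr5:9033815-9033841, plus strand): gtggtgGGATGGCCGCCGGTGagatca
IAA12 (chr1:1241061-1241087, plus strand): gtggtaGGATGGCCACCAATTgggtta
IAA29 (chr4:15583945-15583971, plus strand): gttgttGGATGGCCACCAGTAaaaaca
IAA10 (chr1:1060331-1060357, plus strand): gctgtaGGTTGGCCGCCTCTAcggact

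Some names need care. The table calls AT5G01830 SAUR21, but its description is that of the U-box protein PUB16, so it is called PUB16 here and is 1 of the 2 genes that are neither SAUR nor Aux/IAA; the other is the noncoding RNA AT5G02865. AT1G29490 carries the symbol SAUR68, as AT1G29510 does, and is given by its locus. The rule did not reach IAA3, IAA4, IAA17, IAA26 and IAA27, which the table lists under other names. The 21 matched genes that were not kept comprised 17 SAUR genes and IAA5, IAA15, IAA20 and IAA33. IAA5 lay just outside the count minimum, with 10 counts in 1 library, and IAA6, SAUR34 and SAUR58 just inside, with 3 libraries each. Of the kept genes, 14 overlap another gene, and since the strand setting of the counting is not given, reads of the partners cannot be told apart.

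Library totals ranged from 7283290 to 22101539 counts, and levels are given as CPM, counts scaled to a common library total after normalization by the trimmed mean of M values (TMM), of which 1 CPM stood for about 15.1 counts. HY5 was at 8.64 ± 1.47 CPM in WT GL (SD, n = 3), at 0.0639, 0.354 and 1.24 CPM in hy5 GL, and at 284 ± 72.1, 248 ± 19.2 and 344 ± 58.8 CPM in the K87K, K87Q and K87R lines, where the counts do not separate the transgene from the gene itself. Replicate libraries had Spearman correlations across genes of 0.974 to 0.989 in the GL groups, but of 0.808 to 0.956 in WT HL and 0.777 to 0.936 in hy5 HL, where replicate 3 stood apart in both genotypes. Tissue markers also differed between groups. The summed level of 10 root markers was 323 to 347 CPM in WT GL, 505 to 536 in hy5, 352 to 412 in K87K, 109 to 153 in K87Q and 83.3 to 97.6 in K87R; that of 6 green tissue markers was 97800 to 114000, 119000 to 129000, 55800 to 74700, 37200 to 55500 and 25000 to 27500 CPM in the same order. Of 3 seed storage genes the sum was at most 0.265 CPM in WT, hy5 and K87K and reached 15.1 to 26.9 in K87Q and 1.88 to 9.41 in K87R. Under HL the root markers summed to 440, 294 and 31.0 CPM in WT and to 160, 58.5 and 19.3 in hy5, and the green markers to 138000, 69300 and 8520 and to 84800, 86300 and 2490, the last value of each being replicate 3.

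**Figure D1:**
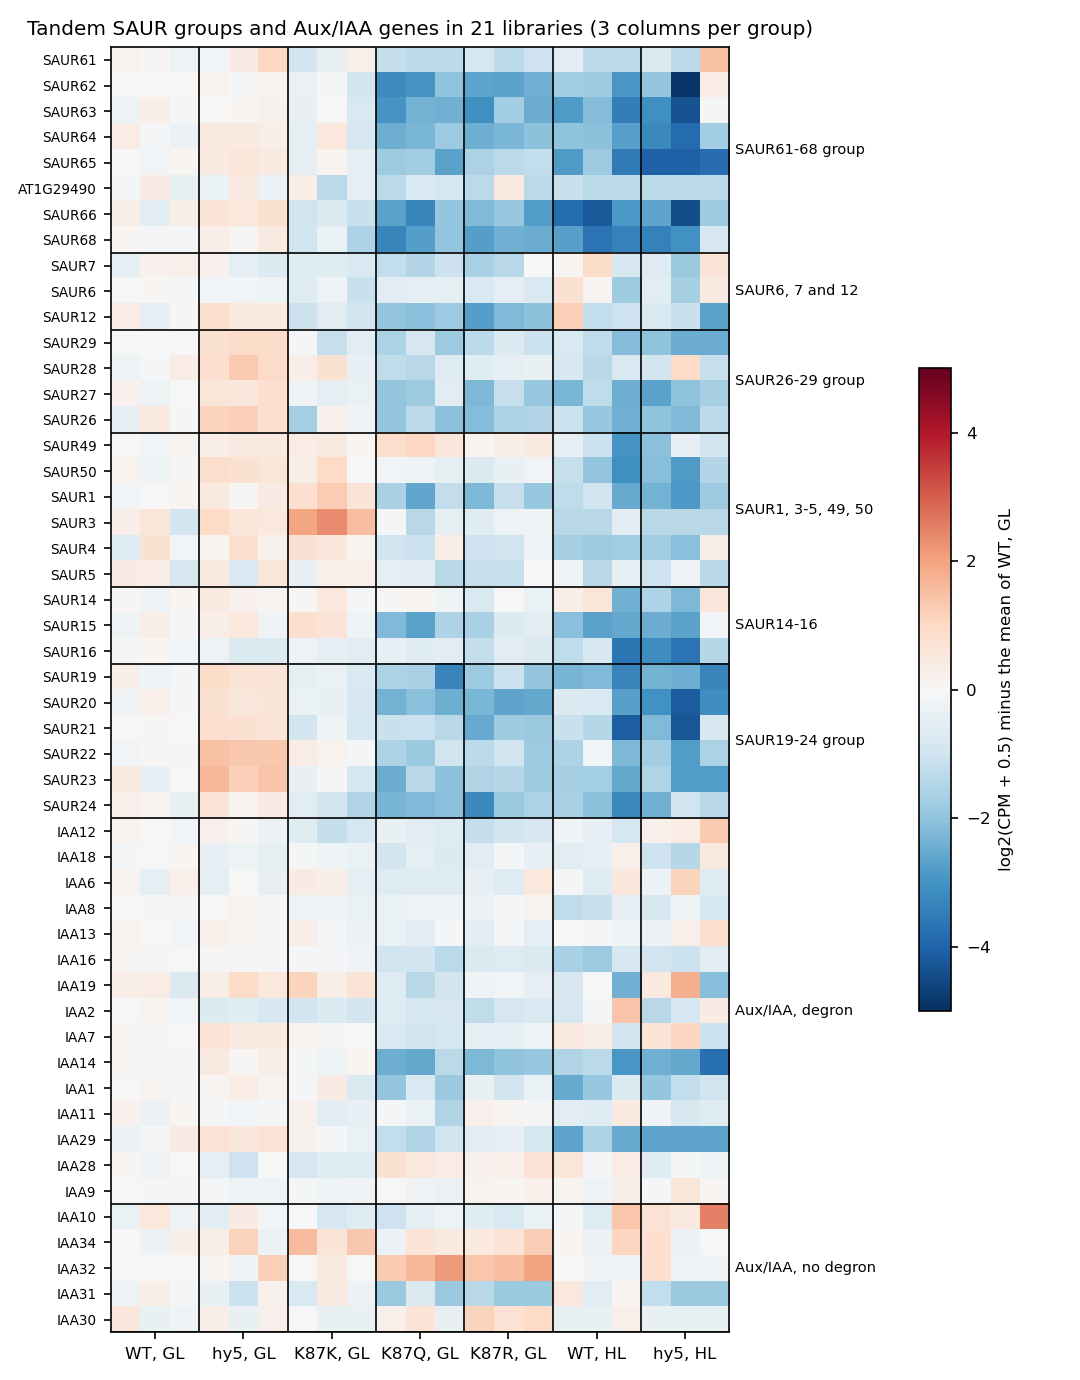
Level of the 30 tandem SAUR genes and the 20 Aux/IAA genes (rows) in the 21 libraries (columns), as log2(CPM + 0.5) minus the mean of the 3 WT GL libraries. The K87Q, K87R and high-light columns are lower than the growth-light WT, hy5 and K87K columns for most genes of the SAUR61 to SAUR68, SAUR26 to SAUR29 and SAUR19 to SAUR24 groups.

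In WT under growth light the highest level per transcript length was that of SAUR78, at 136 ± 4.65 CPM per kilobase (SD, n = 3). SAUR78 encodes a protein that binds ethylene receptors. IAA8 followed at 98.8 ± 4.71, IAA16 at 97.7 ± 5.1 and IAA7, also known as AXR2, at 96.6 ± 9.3 CPM per kilobase, and these 3 did not differ beyond their spread. IAA9 was at 73.3 ± 3.06 CPM per kilobase, below those 3, and SAUR6 at 49.2 ± 3.28 and SAUR14 at 48.8 ± 5.2 were alike within their spread, as were SAUR16 at 31.2 ± 2.8 and SAUR32 at 30.7 ± 1.77. The next levels were those of SAUR55, at 27.7 ± 1.96, and IAA2. Of the 5 highest genes, 4 were thus Aux/IAA genes with a degron core, and none of the SAUR19 to SAUR24, SAUR26 to SAUR29 or SAUR61 to SAUR68 genes was among these 11.

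The first question is what loss of HY5 does to these genes in growth light. The summed level of the SAUR19 to SAUR24 group was 42.4, 41.7 and 38.3 CPM in WT and 81.0, 68.9 and 70.3 CPM in hy5, with no overlap. The summed level of SAUR26 to SAUR29, known for growth at warm temperature, was 9.21, 11.3 and 10.3 CPM in WT and 20.3, 22.1 and 20.1 CPM in hy5, again with every hy5 library above every WT library. No member passed the test across all genes, however. edgeR's quasi-likelihood test over all 7 groups with Benjamini-Hochberg adjustment called 0 of 85 members (0.217% of all genes were called), with 2 members at an unadjusted p under 0.05, and DESeq2 also called 0. The smallest adjusted p was 0.284, for PUB16.

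SAUR22 was at 2.63, 3.11 and 3.08 CPM in WT and at 8.95, 8.15 and 8.14 CPM in hy5. Its libraries did not overlap, and the log2 fold change was 1.51 ± 0.70 (SE, adjusted p = 0.501). SAUR26 was at 3.02, 6.05 and 4.01 CPM in WT and at 9.72, 10.1 and 7.96 CPM in hy5, a log2 fold change of 1.09 ± 0.59 (adjusted p = 0.608). PUB16, a ubiquitin ligase of the U-box family, was at 8.09, 6.93 and 8.69 CPM in WT and at 20.5, 21.9 and 21 CPM in hy5. IAA2 was in the other direction, at 25.7, 27.9 and 23.1 CPM in WT and 15.7, 16.6 and 14.4 CPM in hy5. In all, 22 members (25.9%) were higher in every hy5 library than in every WT library, against 22% of all genes, and 10 (11.8%) were lower, against 22.2% of all genes. All 4 of the SAUR26 to SAUR29 genes and 5 of the 6 SAUR19 to SAUR24 genes were among the 22.

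The shared fit takes its spread from all 7 groups, including the high-light libraries that stood apart. With the spread estimated from the WT and hy5 GL libraries alone, 16 members were higher and 7 lower in hy5 (19.8% and 18.1% of all genes). Among them SAUR22 had a log2 fold change of 1.51 (adjusted p = 2.3e-06), SAUR50 of 0.77 (1.2e-05), PUB16 of 1.41 (2.0e-09), IAA7 of 0.55 (2.5e-06) and IAA2 of -0.72 (3.4e-05). SAUR50 is known to be induced by light in cotyledons, where it promotes their opening.

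The next comparison sets each transgenic line against hy5, in growth light, and so asks what each form of HY5 does when it is added back. In both substitution lines many SAUR genes were lower than in hy5. In K87Q 25 of 85 tested members were lower and 2 higher (29.4% and 2.35%, against 9.38% and 7.35% of all genes), and in K87R 26 were lower and 1 higher (30.6% and 1.18%, against 11.3% and 11.1% of all genes). In K87K 0 were called by edgeR (0.84% of all genes were called), with 11 at an unadjusted p under 0.05, a smallest adjusted p of 0.159 and 0 calls by DESeq2. The median log2 fold change of the members was -1.07 in K87Q, -0.95 in K87R and -0.29 in K87K, against 0.10, 0.10 and 0.00 over all genes. These are bulk samples, in which fewer cells of a type and less RNA per cell cannot be told apart. Root and green tissue markers were lower in the same 2 lines. In K87Q 5 of 9 tested root markers and 3 of 6 green markers were called lower, and in K87R 6 of 9 and 4 of 6. Both marker sums were also lower in K87K than in hy5 without overlap. The root sum was 352 to 412 against 505 to 536 CPM, and the green sum 55800 to 74700 against 119000 to 129000 CPM. The part of the markers in the result was not tested. Without the scaling of library sizes, which moves the median of all genes by 0.65 in K87Q and 0.95 in K87R on the log2 scale, the members split into 6 higher and 18 lower in K87Q (21.5% and 4.25% of all genes) and 8 higher and 12 lower in K87R (37.7% and 4.01%), and none of the members called above changed sign.

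**Figure D2:**
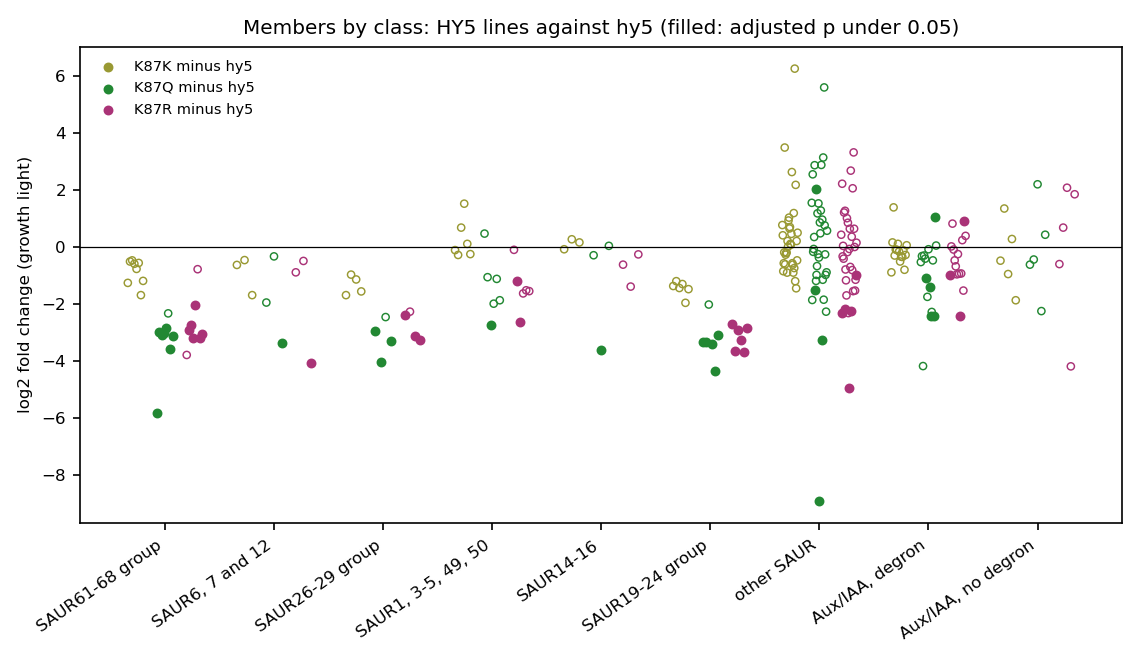
Log2 fold change of each tested SAUR and Aux/IAA gene in the K87K, K87Q and K87R lines against hy5 in growth light, by class of gene. PUB16 and AT5G02865 are not shown. Filled points passed the test at an adjusted p under 0.05. No K87K point is filled, and filled points of K87Q and K87R lie below 0 except for IAA28 in both lines and SAUR51 in K87Q.

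The lower calls lay mostly in 3 of the tandem groups. Of the 8 genes of the SAUR61 to SAUR68 group, 7 were lower in K87Q and 6 in K87R (median log2 fold changes of -3.07 and -2.99). Of SAUR26 to SAUR29, 3 of 4 were lower in each line (medians of -3.14 and -2.76), and of SAUR19 to SAUR24, 5 were lower in K87Q and 6 of 6 in K87R (medians of -3.35 and -3.11). Of the 33 tested SAUR genes outside tandem groups, 3 were lower and 1 higher in K87Q and 5 were lower in K87R, with medians of -0.08 and -0.19. Of the 15 Aux/IAA genes with a degron core, 4 were lower and 1 higher in K87Q and 2 lower and 1 higher in K87R, with medians of -0.54 and -0.48. None of the 5 Aux/IAA genes without the core was called in either line. Of these, IAA30, IAA31, IAA32 and IAA34 had means of 0.195, 0.947, 0.308 and 0.38 CPM in hy5, so a fall in them could hardly be called.

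The sums show the same in each library. The SAUR61 to SAUR68 genes, whose member SAUR63 promotes elongation of hypocotyls and stamen filaments, summed to 82.4, 78.5 and 86.8 CPM in hy5, to 41.9, 60 and 32.0 in K87K, to 7.07, 8.41 and 12.7 in K87Q and to 9.39, 14.1 and 11.3 in K87R. SAUR19 to SAUR24 summed to 27.8, 32.3 and 21.2 CPM in K87K, to 10.7, 12 and 9.26 in K87Q and to 6.35, 10.3 and 8.42 in K87R, against 68.9 to 81.0 in hy5. For both groups every K87Q and K87R library was below every K87K library, and every K87K library was below every hy5 library.

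**Figure D3:**
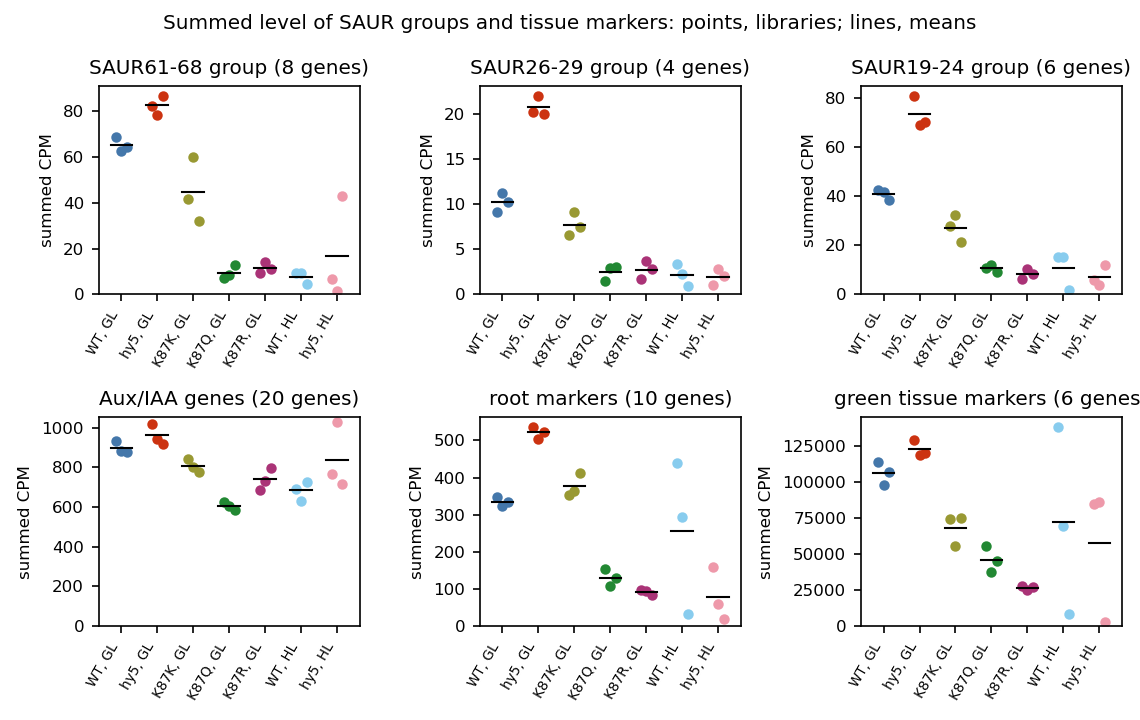
Summed CPM of the SAUR61 to SAUR68, SAUR26 to SAUR29 and SAUR19 to SAUR24 groups, of the Aux/IAA genes and of the root and green tissue markers in each of the 21 libraries. The 3 SAUR sums and both marker sums are lower in all K87K, K87Q and K87R libraries than in all hy5 libraries of growth light.

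SAUR20, of the SAUR19 kind, was at 14.6, 12.7 and 13.4 CPM in hy5, 6.57, 6.37 and 4.58 in K87K, 1.22, 1.61 and 1.13 in K87Q and 1.34, 0.92 and 0.988 in K87R. The 4 groups formed 3 levels without overlap, with K87Q and K87R together at the lowest. The log2 fold change against hy5 was -3.35 ± 0.59 (adjusted p = 6.0e-04) in K87Q and -3.65 ± 0.60 (adjusted p = 2.8e-04) in K87R, by edgeR's quasi-likelihood test; in K87K it was -1.21 ± 0.54 (adjusted p = 0.367).

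SAUR46 had the largest difference. It was at 4.41, 3.37 and 3.63 CPM in hy5 and at 6.02, 8.82 and 3.6 in K87K, had 0 counts in all 3 K87Q libraries, and was at 0.0894, 0.046 and 0.208 CPM in K87R. It was thus found in all hy5 and K87K libraries at similar levels and was close to absent in the substitution lines. Taking 3 counts over the group as the limit, it was at least 85.6-fold lower in K87Q than in hy5 (adjusted p = 3.4e-05), and in K87R its log2 fold change was -4.95 ± 0.77 (adjusted p = 3.3e-04).

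Other SAUR genes show the range. SAUR64, of the SAUR61 to SAUR68 group, was at 9.53, 9.39 and 8.58 CPM in hy5, 4.72, 9.89 and 3.52 in K87K, 0.825, 0.977 and 1.52 in K87Q and 0.805, 0.966 and 1.2 in K87R, with log2 fold changes against hy5 of -3.04 ± 0.69 in K87Q (adjusted p = 0.0048) and -3.19 ± 0.70 in K87R (adjusted p = 0.003). Its K87K libraries overlapped those of hy5, and both substitution lines lay below. SAUR26 was at 0.958, 4.91 and 3.52 CPM in K87K, 0.707, 1.42 and 0.637 in K87Q and 0.537, 1.1 and 1.14 in K87R, and fell by 3.32 ± 0.64 in K87Q (adjusted p = 0.0013) and by 3.28 ± 0.64 in K87R (adjusted p = 0.0012) on the log2 scale. One K87K library of SAUR26 lay within the range of the substitution lines, and all were below hy5. SAUR78, whose level per length was the highest of the members, was at 161, 173 and 159 CPM in hy5, 123, 167 and 117 in K87K, 55.8, 58.7 and 57.7 in K87Q and 29.9, 41.4 and 38.8 in K87R. It fell by 1.52 ± 0.39 in K87Q (adjusted p = 0.011) and by 2.17 ± 0.40 in K87R (adjusted p = 7.3e-04), and the K87R libraries lay below those of K87Q.

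By mean CPM over the 7 groups, SAUR62, SAUR21, SAUR50, SAUR14 and SAUR6 were each the highest of their tandem group, and they did not all follow. SAUR62 was at 16.1, 13.8 and 15.6 CPM in hy5, 11.2, 13.6 and 6.95 in K87K, 1.18, 1.42 and 3.14 in K87Q and 1.88, 1.84 and 2.29 in K87R, and was called lower in both substitution lines. SAUR21 was at 27.6, 25.9 and 24.1 CPM in hy5, 7.66, 12.8 and 7.93 in K87K, 6.64, 6.94 and 5.39 in K87Q and 2.24, 4.05 and 3.8 in K87R. It fell by 2.93 ± 0.75 in K87R (adjusted p = 0.0091), and its value in K87Q was -2.03 ± 0.72 (adjusted p = 0.06), the 1 gene of its group not called there. SAUR50, a gene of cotyledon opening, was at 30.2, 27.6 and 24.9 CPM in hy5, 19.6, 32.5 and 15.6 in K87K, 14.6, 13.3 and 11.4 in K87Q and 9.39, 12.2 and 14.4 in K87R, and passed the test in K87R alone, at -1.20 ± 0.42 (adjusted p = 0.046). SAUR14, which is also induced by light in cotyledons, was at 39.7, 32.9 and 31.4 CPM in hy5, 29.9, 30.3 and 24.1 in K87Q and 16.3, 28.3 and 22.5 in K87R, and SAUR6 was at 63.2, 62.3 and 59.9 CPM in hy5, 46.9, 50.8 and 48.6 in K87Q and 40.8, 49.7 and 40.2 in K87R. The libraries of SAUR14 and SAUR6 in the substitution lines were below those of hy5 without overlap, but neither gene passed the test, with log2 fold changes from -0.30 to -0.63.

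Among the Aux/IAA genes, IAA14 (SOLITARY-ROOT), which represses the start of lateral roots, was at 25.6, 19.7 and 23.4 CPM in hy5, 17.9, 16.1 and 19.9 in K87K, 3.03, 2.74 and 7.11 in K87Q and 3.58, 4.32 and 4.63 in K87R. Its K87K libraries overlapped those of hy5, and the substitution lines were lower with no overlap, by log2 fold changes of -2.42 ± 0.46 (adjusted p = 0.0011) and -2.45 ± 0.46 (adjusted p = 8.5e-04). IAA16 was at 206, 191 and 189 CPM in hy5, 98.2, 101 and 76.3 in K87Q and 118, 125 and 120 in K87R. It passed the test in K87Q, at -1.09 ± 0.26 (adjusted p = 0.0068), and did not in K87R, at -0.69 ± 0.26 (adjusted p = 0.059), though no library of either line reached those of hy5. IAA7 was at 307, 253 and 250 CPM in hy5, 201, 178 and 186 in K87K, 108, 95.5 and 99.6 in K87Q and 133, 133 and 154 in K87R, and the 4 groups did not overlap. IAA7 and IAA29, a gene known to be induced by PIF factors in shade, were lower in K87Q, at -1.42 ± 0.41 (adjusted p = 0.021) and -2.42 ± 0.69 (adjusted p = 0.022). IAA12 (BODENLOS), which acts with ARF5 in forming the embryonic root, was lower in K87R, at -0.99 ± 0.28 (adjusted p = 0.017). In K87K its value was -0.90 ± 0.28 (adjusted p = 0.159 by edgeR), also with no overlap with hy5. K87R differed from K87K by -0.09 ± 0.28 (adjusted p = 0.866 by edgeR), and the libraries of these 2 lines overlapped. A difference that is not called does not show that the lines are alike. The difference between K87Q and K87R is tested below.

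IAA28 rose in both lines and SAUR51 in K87Q. IAA28, which also represses lateral root formation, was at 6.59, 4.16 and 9.2 CPM in hy5, 4.86, 5.83 and 5.64 in K87K, 15.7, 13.3 and 11.8 in K87Q and 10.6, 10.9 and 15.4 in K87R. All libraries of the substitution lines were above all of hy5 and K87K. The log2 fold change against hy5 was 1.03 ± 0.30 in K87Q (adjusted p = 0.024) and 0.89 ± 0.30 in K87R (adjusted p = 0.04); without hy5 GL replicate 2 the adjusted p was 0.13 and 0.19. SAUR51 was at 2.43, 2.39 and 1.41 CPM in hy5 and at 9.16, 7.04 and 9.41 in K87Q, a log2 fold change of 2.03 ± 0.63 (adjusted p = 0.031, or 0.13 without hy5 GL replicate 3). Its K87R libraries, at 3.22, 4.55 and 7.18 CPM, were above hy5 but did not pass the test. Of the 20 Aux/IAA members, IAA14 and IAA28 were those called in both lines, in opposite directions.

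**Figure D4:**
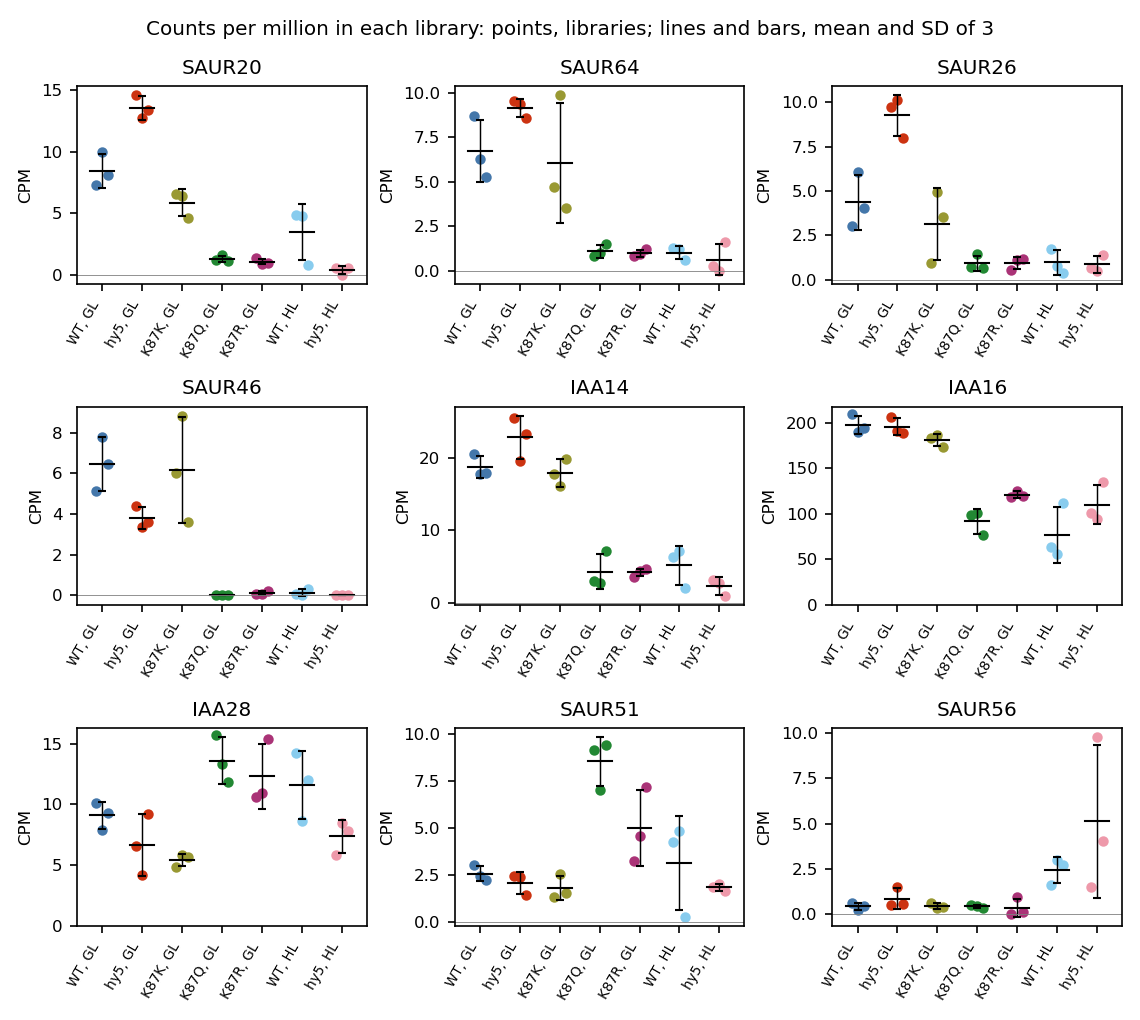
CPM of SAUR20, SAUR64, SAUR26, SAUR46, IAA14, IAA16, IAA28, SAUR51 and SAUR56 in each library (points) of the 7 groups, with the mean and SD of 3 libraries. The means of IAA28 and SAUR51 are highest in K87Q, while all K87Q, K87R and high-light libraries of SAUR46 and IAA14 lie below all others.

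Several alternatives change the counts against hy5. With the spread estimated from the 2 groups compared alone, 38 members were lower and 10 higher in K87Q (27.1% and 28% of all genes) and 40 lower and 6 higher in K87R (29.8% and 31.4%). In K87K the same fit called 18 lower and 3 higher (14.5% and 16.4% of all genes), among them all 6 of the SAUR19 to SAUR24 group, with SAUR21 at -1.43 (adjusted p = 1.7e-05) and SAUR66 at -1.67 (adjusted p = 5.2e-06); 25 members (29.4%) were lower in every K87K than in every hy5 library, against 20.8% of all genes. The count in K87Q was 15 without K87Q replicate 1. The count in K87R was 15 without K87R replicate 1, 17 without replicate 2, 15 without replicate 3 and 17 without hy5 GL replicate 1. Of the 27 calls in each line, 15 in K87Q and 14 in K87R held in each of the 21 fits that left out 1 library. SAUR20, SAUR46 and IAA14 in both lines and SAUR78 in K87R were among those that held.

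Against K87K, the line with the unchanged lysine, 13 members were lower and 3 higher in K87Q (15.3% and 3.53%, against 8.7% and 6.62% of all genes), and 10 were lower and 1 higher in K87R (11.8% and 1.18%, against 8.37% and 6.71% of all genes). SAUR58, 1 of these 10, reached the count minimum in the 3 K87K libraries alone, so that it was a member only through the group in which it is high. SAUR46 was at least 137-fold lower in K87Q (adjusted p = 1.8e-05) and fell by 5.64 ± 0.78 on the log2 scale in K87R (adjusted p = 1.5e-04). In the same order IAA14 fell by 2.06 ± 0.45 (adjusted p = 0.0038) and 2.1 ± 0.45 (adjusted p = 0.0037), and SAUR20 by 2.14 ± 0.57 (adjusted p = 0.014) and 2.44 ± 0.58 (adjusted p = 0.0076). IAA28 was higher in both, at 1.32 ± 0.31 (adjusted p = 0.0055) and 1.18 ± 0.31 (adjusted p = 0.012).

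SAUR1 was at 6.02, 8.21 and 5.15 CPM in K87K and at 0.668, 0.0977 and 1.03 in K87Q, a fall of 3.41 ± 0.82 (adjusted p = 0.0075). Its K87K level was also above hy5, at 4.54, 3.28 and 4.33 CPM, and above WT, at 2.83, 3.19 and 3.39. SAUR59 was at 11.8, 12.5 and 11.9 CPM in K87K and at 42.9, 31.0 and 33.9 in K87Q, a rise of 1.57 ± 0.51 (adjusted p = 0.041, or 0.13 without K87Q replicate 1), and its K87R libraries, at 21, 27.2 and 23.2 CPM, lay between. SAUR51 rose by 2.25 ± 0.63 in K87Q (adjusted p = 0.02). The members in both contrasts were measured against the same K87K libraries. Without scaling of library sizes 4 were higher and 4 lower in K87Q (10.1% and 4.24% of all genes) and 5 higher and 6 lower in K87R (17.1% and 3.45%), and the median of all genes moved by 0.33 and 0.63. The counts also moved with single libraries. In K87Q the count was 10 and 7 without K87K replicate 1 and 2, 8, 10 and 9 without K87Q replicate 1, 2 and 3, and 26, 27 and 32 without WT HL replicate 3, hy5 HL replicate 2 and hy5 HL replicate 3. In K87R it was 6 without K87K replicate 2 or any 1 K87R library, and 24, 17 and 19 without the same 3 HL libraries. The calls that held in all 21 such fits were those of SAUR46, IAA14, SAUR1 and IAA28 in K87Q and of SAUR46, IAA14, SAUR20 and SAUR78 in K87R.

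K87Q and K87R were then compared with each other. edgeR called 0 of 85 members (0% of all genes), with 3 at an unadjusted p under 0.05, and DESeq2 called 0. The smallest adjusted p was 0.469, for SAUR46, which had 0 counts in K87Q and 6 in K87R. In all, 11 members (12.9%) were higher in every K87Q than in every K87R library, against 19.5% of all genes, and 11 were lower, against 17.7%, and the median log2 difference was 0.03. A p that misses the threshold does not show that the 2 lines are alike: for SAUR59 the values above did not overlap, and with the spread of these 2 groups alone 7 members were higher and 4 lower in K87Q (11.9% and 11.7% of all genes).

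Against WT, K87K had 0 members called by edgeR (1.09% of all genes), with 6 at an unadjusted p under 0.05 and 1 called by DESeq2. The smallest adjusted p, 0.114, was that of SAUR55, which was at 31.8, 35.1 and 30.7 CPM in WT, 24.1, 19.7 and 20.6 in hy5, 21.2, 15.3 and 9.57 in K87K, 10.2, 12.8 and 11.4 in K87Q and 10.6, 9.2 and 12.8 in K87R. Its WT libraries were above all others. K87Q had 20 members lower and 1 higher than WT (23.5% and 1.18%, against 9.53% and 7.22% of all genes), and K87R 14 lower and 1 higher (16.5% and 1.18%, against 8.59% and 5.93%). Without scaling the splits were 4 higher and 9 lower in K87Q (14.3% and 4.25% of all genes) and 5 higher and 6 lower in K87R (23.2% and 3.45%), with the median of all genes moved by 0.46 and 0.76, and single libraries moved the counts. In K87Q the count was 12, 13 and 13 without WT GL replicate 1, 2 and 3 and 11 without K87Q replicate 1. In K87R it was 8, 9 and 9 without K87R replicate 1, 2 and 3, 23 without WT HL replicate 3 and 24 without hy5 HL replicate 3. SAUR46 was at least 141-fold lower in K87Q than in WT (adjusted p = 1.6e-05) and fell by 5.72 ± 0.78 in K87R (adjusted p = 1.4e-04). IAA14 fell by 2.13 ± 0.45 (adjusted p = 0.0029) and SAUR55 by 1.5 ± 0.32 (adjusted p = 0.003) in K87Q. In K87R SAUR78 fell by 2.16 ± 0.40 (adjusted p = 9.8e-04) and SAUR20 fell by 2.97 ± 0.59 (adjusted p = 0.0019).

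The member counted as higher than WT in both lines was IAA32, which lacks the degron core and is known from the apical hook. It was at 0.0658, 0.0797 and 0.0616 CPM in WT, 0.128, 0 and 0.796 in hy5, 0.0684, 0.307 and 0.0818 in K87K, 0.904, 1.32 and 2.01 in K87Q and 0.984, 1.1 and 1.77 in K87R. The libraries of both substitution lines were above all others in growth light. IAA32 had 10 counts in 6 libraries, the 3 of K87Q and the 3 of K87R, and was thus a member only through the groups in which it is high, so these values are a description with no test. WT held 3 counts in all, so the ratios to WT, 20.1 in K87Q and 19.4 in K87R, rest on few counts.

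The high-light comparisons ask how the genes respond to 2 h at higher light with and without HY5. In WT 26 of 85 members were lower and 1 higher under HL (30.6% and 1.18%, against 10.8% and 14% of all genes), and in hy5 34 were lower and 4 higher (40% and 4.71%, against 17.7% and 18.9% of all genes). In both, 19 members were lower, which is 73.1% of those lower in WT and 55.9% of those lower in hy5. Over all genes tested 1575 were lower in both, 71.9% of those lower in WT and 44.1% of those lower in hy5, so the first share is near that of all genes. The median log2 fold change of the members was -1.30 in WT and -1.55 in hy5 (-1.46 with members at 0 counts set to their limit), against 0.03 and 0.00 over all genes. Root markers moved too: 5 of 9 were lower in WT and 8 of 9 in hy5, while 0 and 1 of the 6 green markers were lower, and their part in the result was not tested. Without replicate 3 of both HL groups 32 members were lower and 7 higher in WT (23.7% and 22.8% of all genes) and 43 lower and 5 higher in hy5 (24.5% and 22.9%). In WT 17 members were called without WT GL replicate 2, and in hy5 the fit on the 2 groups alone called 17 lower and 1 higher (6.81% and 10.5% of all genes).

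**Figure D5:**
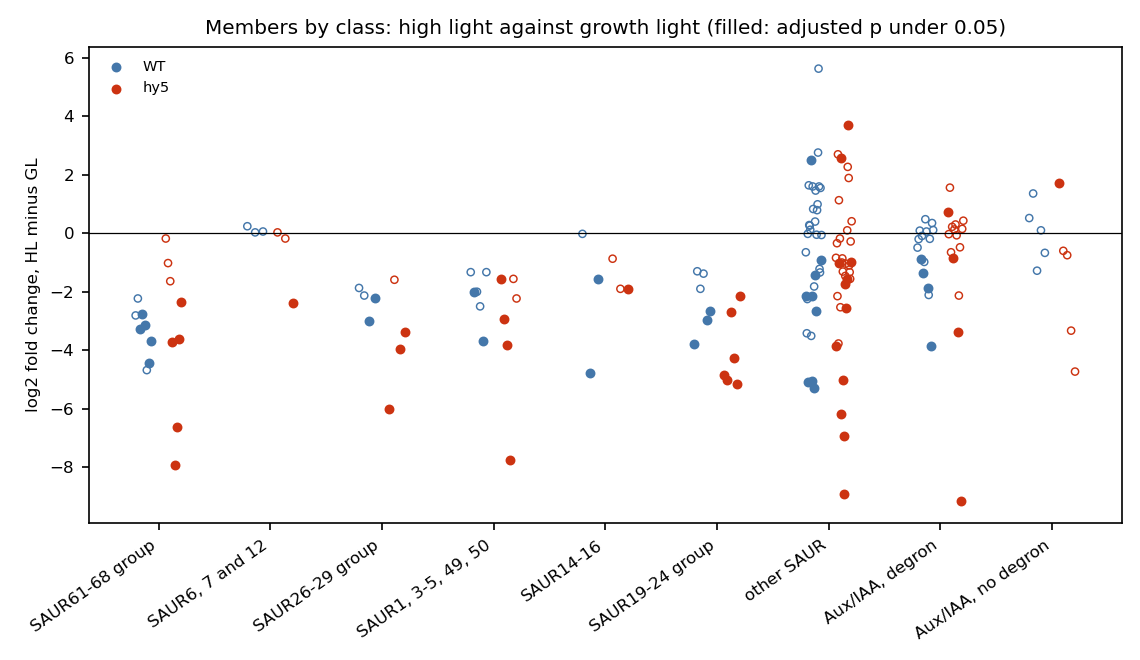
Log2 fold change of each tested SAUR and Aux/IAA gene in high light against growth light, by class of gene, in WT and in hy5. PUB16 and AT5G02865 are not shown. Filled points passed the test at an adjusted p under 0.05. Most filled points lie below 0 in both genotypes, and SAUR56 is above 0 in both.

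By group, 5 of the 8 SAUR61 to SAUR68 genes were lower in each genotype (medians of -3.22 in WT and -2.98 in hy5). Their sum was 9.19, 9.44 and 4.6 CPM in WT HL and 6.81, 1.33 and 42.8 CPM in hy5 HL, against 62.5 to 69.0 and 78.5 to 86.8 CPM in growth light. In hy5 HL replicate 3 was far above the other replicates, though below every hy5 GL library, and without replicate 3 of both HL groups 7 of the 8 were lower in hy5 (median of -4.58) and 6 in WT (median of -2.75). Of SAUR26 to SAUR29, 2 were lower in WT and 3 in hy5 (medians of -2.17 and -3.66). Of SAUR19 to SAUR24, 3 were lower in WT and 6 of 6 in hy5 (medians of -2.27 and -4.56). SAUR19 to SAUR24 summed to 15.1, 15.1 and 1.81 CPM in WT HL and to 6.08, 3.77 and 11.9 in hy5 HL, against 38.3 to 42.4 and 68.9 to 81.0 CPM in growth light. Every HL library was below every GL library of its genotype. In WT the lowest sum was that of replicate 3, and in hy5 replicate 3 had the highest.

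SAUR46 was at 5.13, 7.81 and 6.47 CPM in WT GL and at 0.0835, 0 and 0.31 in WT HL, a fall of 5.30 ± 0.76 on the log2 scale (adjusted p = 1.1e-04), and had 0 counts in hy5 HL, at least 63.4-fold lower than hy5 GL (adjusted p = 1.9e-05). It was near 0 under HL in both genotypes. SAUR68 was at 15.5, 13.7 and 13.9 CPM in WT GL and at 1.75, 0.654 and 0.929 in WT HL, and fell by 3.69 ± 0.65 (adjusted p = 3.7e-04). SAUR66 was at 12.8, 6.85 and 12.7 CPM in WT GL and at 0.251, 0.0935 and 0.973 in WT HL, and fell by 4.43 ± 0.82 (adjusted p = 5.6e-04). Neither overlapped between the lights.

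Among the Aux/IAA genes 4 were lower in WT, IAA8, IAA14, IAA16 and IAA29, and 3 of these, IAA14, IAA16 and IAA29, were lower in hy5. IAA29 was at 2.04, 2.39 and 3.64 CPM in WT GL and 0, 0.561 and 0.0442 in WT HL, a fall of 3.87 ± 0.81 (adjusted p = 0.002). In hy5 it was at 4.6, 4.16 and 4.69 CPM in GL and had 0 counts in HL, at least 73.7-fold lower (adjusted p = 1.6e-05). IAA14 was at 20.6, 17.8 and 18.0 CPM in WT GL, 6.35, 7.11 and 2.08 in WT HL and 3.2, 2.75 and 0.91 in hy5 HL, and fell by 1.87 ± 0.45 in WT (adjusted p = 0.0048) and by 3.36 ± 0.48 in hy5 (adjusted p = 3.0e-05). For both genes every HL library lay below every GL library of its genotype.

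Some SAUR genes, SAUR36 and SAUR20 among them, were lower in hy5 alone by the calls, which does not by itself show that the genotypes differ. SAUR36, which links auxin with leaf senescence, was at 12.2, 6.85 and 8.81 CPM in WT GL, 5.51, 2.43 and 0.177 in WT HL, 13.2, 10.5 and 9.9 in hy5 GL and 0.264, 0 and 0 in hy5 HL. It fell by 6.93 ± 0.95 in hy5 (adjusted p = 1.7e-05), and in WT the log2 fold change was -1.82 ± 0.66 (adjusted p = 0.051). SAUR20 was at 7.3, 9.96 and 8.07 CPM in WT GL, 4.84, 4.77 and 0.84 in WT HL and 0.595, 0 and 0.537 in hy5 HL, and fell by 5.01 ± 0.66 in hy5 (adjusted p = 1.1e-05), while in WT the log2 fold change was -1.30 ± 0.55 (adjusted p = 0.092). SAUR65 was much lower under HL in both genotypes. It was at 7.89, 7.09 and 8.38 CPM in WT GL and at 0.668, 1.87 and 0.221 in WT HL. In hy5 GL it was at 10.7, 12.2 and 10.9 CPM, and it had 2 counts over all hy5 HL libraries. The fall in hy5 had a ratio of 276 (75.8 to 2280 by the 95% counting interval, adjusted p = 7.1e-07 by edgeR). For all 3 genes the HL libraries lay below the GL libraries in both genotypes.

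The test of the difference itself, the interaction of genotype and light, called 0 members by edgeR (0.089% of all genes), with 14 at an unadjusted p under 0.05, and 5 lower by DESeq2 (1.24% of all genes lower and 0.619% higher). The smallest adjusted p was 0.073, for SAUR65, with 0.085 for SAUR20 and 0.096 for SAUR36. Without replicate 3 of both HL groups the interaction called 2 higher and 20 lower (11.6% and 13.6% of all genes), with SAUR20 at -4.44 (adjusted p = 3.8e-05), SAUR36 at -4.86 (2.3e-05), SAUR65 at -7.79 (2.1e-04) and IAA14 at -1.45 (0.018). It called 12 without WT HL replicate 3 alone and 6 without hy5 HL replicate 1.

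Between the genotypes under HL, 4 members were lower in hy5 and 1 higher (4.71% and 1.18%, against 2.3% and 0.84% of all genes). SAUR20 fell by 3.03 ± 0.63 (adjusted p = 0.013) and SAUR36 by 4.84 ± 0.96 (adjusted p = 0.0097), SAUR65 was lower with a ratio of 17.9 (4.58 to 154 by the counting interval, adjusted p = 0.011), and SAUR45, with 1 count in hy5 HL, with a ratio of 52.1 (8.91 to 2100, adjusted p = 0.043). IAA12 was higher, at 19.9, 17.2 and 12.4 CPM in WT HL and 27.4, 30.1 and 57.3 in hy5 HL (log2 fold change 1.22 ± 0.28, adjusted p = 0.026). The libraries of SAUR36 and SAUR45 overlapped between the genotypes, and those of SAUR20, SAUR65 and IAA12 did not. Libraries with the same replicate number deviated together in this contrast, and with the replicate number as a block edgeR called 0 members (0.157% of all genes were lower and 0.0056% higher; SAUR20 at -3.03, adjusted p = 0.756, and IAA12 at 1.19, adjusted p = 0.708). With the spread of these 2 groups alone it called 0 as well (0.0056% of all genes lower and 0% higher). Without replicate 3 of both groups 21 were lower and 6 higher (16.4% and 13.6% of all genes), SAUR20, SAUR36, SAUR45, SAUR65 and IAA12 among them. Without WT HL replicate 1 the count was 3, without WT HL replicate 2 it was 1, without WT HL replicate 3 it was 18, and without hy5 HL replicate 1 and replicate 3 it was 12 and 10. None of the 5 calls held in every such fit: the adjusted p was 0.057 for SAUR36 and 0.16 for SAUR45 without WT HL replicate 1, and 0.067 for SAUR65, 0.054 for SAUR20 and 0.074 for IAA12 without WT HL replicate 2.

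Members that were higher under HL were few. SAUR56 was at 0.592, 0.239 and 0.431 CPM in WT GL, 1.59, 2.99 and 2.7 in WT HL, 0.512, 1.51 and 0.531 in hy5 GL and 1.52, 9.79 and 4.05 in hy5 HL. It rose by 2.49 ± 0.89 in WT (adjusted p = 0.046, or 0.15 without WT GL replicate 2) and by 2.58 ± 0.87 in hy5 (adjusted p = 0.025, or 0.13 without hy5 HL replicate 2). All HL libraries of SAUR56 were above all GL libraries, though in hy5 by 1.52 against 1.51 CPM at the nearest. SAUR35, also counted as higher in hy5, was at 0.512, 0.266 and 0.531 CPM in hy5 GL, 0.251, 1.22 and 0.486 in WT HL and 6.21, 9.99 and 1.24 in hy5 HL. It had 10 counts in 5 libraries, 3 of hy5 HL and 2 of WT HL, so the count minimum that made it a member was met through the libraries in which it is high, and its difference is given as a description with no test. The same holds for SAUR10, counted as lower in WT HL, which met the minimum through 3 WT GL libraries and 1 of K87K. IAA10 was at 2.17, 4.69 and 3.01 CPM in hy5 GL and 5.82, 4.89 and 21.5 in hy5 HL, and rose by 1.72 ± 0.61 (adjusted p = 0.032); its call rests on replicate 3, without which the adjusted p was 0.33. IAA12 rose by 0.73 ± 0.28 in hy5 (adjusted p = 0.05 as rounded, or 0.32 without hy5 HL replicate 3).

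The rest of the auxin pathway was described from lists of genes outside the members. For comparison, 9.38% of all genes were lower and 7.35% higher in K87Q against hy5, and 11.3% and 11.1% in K87R. The lists are short, so their counts describe single genes and are not results about a list. Against hy5, 1 of 6 TIR1/AFB receptor genes was lower in K87Q (AFB1, log2 fold change -1.43 ± 0.47, adjusted p = 0.043) and 2 in K87R (AFB1 and AFB2), and of 15 ARF genes edgeR called 0 in K87Q (3 at an unadjusted p under 0.05, and 2 higher by DESeq2) and 2 higher in K87R, among them ARF5 at 1.58 ± 0.54 (adjusted p = 0.04). Of 7 tested GH3 genes, which conjugate auxin to amino acids, 2 and 3 were lower, with GH3.6 at -1.08 ± 0.27 (adjusted p = 0.01) in K87Q and -1.65 ± 0.28 (adjusted p = 3.3e-04) in K87R. Of 9 biosynthesis genes 4 were lower in K87Q and 2 in K87R, TAR2 at -2.95 ± 0.51 (adjusted p = 5.3e-04) and -2.09 ± 0.49 (adjusted p = 0.0051) among them. Of 14 transport genes 4 were lower and 1 higher in each line; the importer AUX1 was at -1.17 ± 0.30 (adjusted p = 0.01) and -1.52 ± 0.30 (adjusted p = 0.0013), and the transporter ABCB4 was the 1 that rose. Of 6 genes of auxin oxidation and release from conjugates edgeR called 0 in K87Q (1 at an unadjusted p under 0.05, and 1 higher by DESeq2) and 2 higher in K87R, IAR3 and DAO1.

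Of 11 effectors of SAUR proteins, the PP2C.D phosphatases and proton pumps, 2 were lower in K87Q and 3 in K87R, where 9.38% and 11.3% of all genes were lower. PP2C.D1 fell by 3.76 ± 0.62 (adjusted p = 3.3e-04) and 2.46 ± 0.58 (adjusted p = 0.0052) by edgeR. Of 7 PIF and BZR1 factors, which promote elongation, 1 was lower in K87Q and 2 in K87R, PIF5 at -1.0 ± 0.26 (adjusted p = 0.011) and -0.91 ± 0.25 (adjusted p = 0.015). Of the 5 Aux/IAA genes that the rule did not reach, IAA17 fell by 2.72 ± 0.64 (adjusted p = 0.0065) and 2.49 ± 0.64 (adjusted p = 0.0088), and IAA27 rose by 1.57 ± 0.32 (adjusted p = 0.0023) and 1.36 ± 0.32 (adjusted p = 0.0055).

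Under HL the importer LAX3 fell by 2.70 ± 0.23 in WT (adjusted p = 1.7e-07) and by 2.94 ± 0.24 in hy5 (adjusted p = 3.4e-08), among 7 and 9 of 14 transport genes that were lower, where 10.8% and 17.7% of all genes were lower. In the same order 3 and 6 of 6 receptor genes were lower, 3 and 7 of 15 ARF genes, 4 and 4 of 7 GH3 genes, 1 and 3 of 9 biosynthesis genes, and 1 and 3 of 6 genes of oxidation and release from conjugates, and no gene of these lists or the transport list was called higher. Of the 7 PIF and BZR1 factors 3 and 5 were lower and 0 and 1 higher, of the 11 effectors 2 and 3 were lower and 1 and 1 higher, and of the 5 Aux/IAA genes that the rule did not reach 1 and 1 were lower and 0 and 1 higher. PIF5 fell by 2.32 ± 0.27 in WT (adjusted p = 3.6e-06) and 2.36 ± 0.27 in hy5 (adjusted p = 1.9e-06). Of the effectors, PP2C.D1 fell by 3.3 ± 0.60 (adjusted p = 4.8e-04) and 5.43 ± 0.70 (adjusted p = 8.8e-06), and PP2C.D9 rose by 1.39 ± 0.30 (adjusted p = 0.0023) and 1.36 ± 0.30 (adjusted p = 0.0018).

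HY5 binds the G-box CACGTG, and ARFs bind auxin response elements, of which TGTCTC and TGTCGG were searched on both strands of the 250 bases before each annotated gene start, with no overlap between matches of different motifs in the members. CACGTG was found before 1777 of 27420 nuclear protein-coding genes (6.48%), 1 of 64 SAUR genes (1.56%) and 3 of 20 Aux/IAA genes (15%). TGTCTC was found before 3002 protein-coding genes (10.9%), 7 SAUR genes (10.9%) and 7 Aux/IAA genes (35%), and TGTCGG before 1141 (4.16%), 2 SAUR genes (3.12%) and 4 Aux/IAA genes (20%). Of the 25 members that were lower in K87Q than in hy5, 1 had CACGTG (4%), 6 had TGTCTC (24%) and 3 had TGTCGG (12%); of the 26 lower in K87R the numbers were 0, 5 (19.2%) and 2 (7.69%). A match is a description of these letters and not of binding, and no match says only that the letters are not in this window.

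The 4 members with a G-box in this window were IAA19 (MSG2), which acts in hypocotyl tropisms, IAA7, SAUR59 and IAA30. The stretches around it are shown because HY5 is the factor changed in this series; capitals mark CACGTG, on the coding strand of the gene, and the last number is the distance in bases from the gene start.
IAA19 (chr3:5263921-5263946, 70): caaatgactcCACGTGtcgatattgg
IAA7 (chr3:8194574-8194599, 22): taatcaagccCACGTGtcataaaccc
SAUR59 (chr3:22434717-22434742, 137): aaatgtttgcCACGTGggtatcacac
SAUR59 (chr3:22434730-22434755, 124): gtgggtatcaCACGTGtgattgcatc
IAA30 (chr3:22995577-22995602, 99): gtctgcatgaCACGTGtatttgtctg
Their values went in different directions against hy5 in growth light: IAA7 was lower in K87Q, SAUR59 had a log2 fold change of 0.95 ± 0.50 there (adjusted p = 0.208), and IAA30 was below 1 CPM in all libraries. IAA19 was at 6.14, 9.83 and 6.99 CPM in hy5, 10.9, 5.91 and 7.85 in K87K, 2.91, 1.51 and 2.3 in K87Q and 4.02, 4.28 and 3.38 in K87R, lower in every library of the substitution lines than in hy5 but not called.

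The whole window is given for IAA19, which held the most matches of any member (3 of TGTCTC and 1 of CACGTG), and for SAUR20, which held 1 match of TGTCTC read on the other strand as GAGACA, 25 bases from the start. Capitals mark the matches.
IAA19 (chr3:5263751-5264000, plus strand): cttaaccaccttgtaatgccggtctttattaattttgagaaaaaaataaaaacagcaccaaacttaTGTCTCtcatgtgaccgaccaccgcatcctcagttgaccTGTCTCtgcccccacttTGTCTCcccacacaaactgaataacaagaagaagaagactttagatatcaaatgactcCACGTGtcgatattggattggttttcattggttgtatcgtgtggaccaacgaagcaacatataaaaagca
SAUR20 (chr5:5966786-5967035, minus strand): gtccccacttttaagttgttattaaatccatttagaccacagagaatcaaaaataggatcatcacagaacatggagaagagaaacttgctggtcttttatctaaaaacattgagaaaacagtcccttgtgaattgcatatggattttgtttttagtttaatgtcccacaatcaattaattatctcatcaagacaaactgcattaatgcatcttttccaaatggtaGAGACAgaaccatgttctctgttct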

How the data were processed

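The authors deposited 1 table of read counts per gene for 21 libraries, and per the submitters' processing notes the tools included featureCounts 1.5.0-p3 as well as DESeq2 1.20.0, StringTie 1.3.3b, HISAT2 2.0.5 and fastp, with TAIR10 as the build. The strand setting is not given in the sources used here. The deposited counts were scaled by TMM (factors 0.599 to 1.57) and tested with edgeR 4.0.16 (R 4.3.3) by a quasi-likelihood fit over all 7 groups with 14 contrasts, and p-values were adjusted by Benjamini-Hochberg over 20234 genes with a threshold of 0.05. The SE is the log2 fold change divided by the square root of the F value. CPM uses TMM-scaled library sizes. Counting intervals (95%) and the limit of 3 counts cover counting error only. The fit was tested on simulated data for 1 contrast, K87R against hy5. Alternatives were DESeq2 1.42.0 (Wald test, and its size factors in edgeR), no scaling, no count filter, the spread of the groups compared alone, a replicate block, and leaving out libraries. Same-numbered WT and hy5 HL libraries had correlated deviations from their group means across genes (r = 0.381, 0.159 and 0.483), so the replicate number was also tried as a block. The labels give no source of pairing. The correlation was not computed for libraries with different numbers, and replicate 3 stood apart in both genotypes, so these values do not establish pairs. Identical start and end were found in the reference annotation for 86 of 86 members, and sequences were read from TAIR10.1.

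The members, gene lists, tests and marker lists were chosen with earlier results of these data known. Values in every library are given for the 3 called members with the smallest adjusted p in each direction of each contrast and for the member with the highest mean CPM in each class; of the pathway lists, genes with the smallest adjusted p are named. Members shown outside this rule were chosen after their values were seen.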

Additional observations from a re-analysis of the deposited data

Results flagged for a closer look

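The level of IAA12 under high light moved in opposite directions in the 2 genotypes. The fall in WT was not called, and the rise in hy5 lost its call without hy5 HL replicate 3. All 3 WT HL libraries (19.9, 17.2 and 12.4 CPM) were below all 3 WT GL libraries (25.8, 22.5 and 21.1 CPM), while all 3 hy5 HL libraries (27.4, 30.1 and 57.3 CPM) were above, or in 1 case barely above, all 3 hy5 GL libraries (27, 23.7 and 18.7 CPM). The difference between the responses was 1.22 ± 0.40 on the log2 scale, and edgeR's test of the interaction gave an adjusted p of 0.222. Without replicate 3 of both HL groups the difference was 0.64 (adjusted p = 0.128), and DESeq2 gave 1.23 (adjusted p = 0.1). Replicate 3 holds both the lowest WT HL and the highest hy5 HL value, and the difference was thus smaller without it. Why replicate 3 stood apart was not tested.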

How the results depend on the processing

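Each count of members called was recomputed under every alternative, with the contrasts in a fixed order. First come the light responses (WT, then hy5, then the interaction), next the mutant against WT (GL, then HL), then the 3 lines against hy5, the 2 substitution lines against the K87K line and against each other, and last the 3 lines against WT. The counts as reported were 27, 38, 0, 0, 5, 0, 27, 27, 16, 11, 0, 0, 21 and 15. Counts that moved by more than 1.5 times are given here. With the spread from the groups of the contrast alone, hy5 HL gave 18, hy5 against WT in GL 23 and in HL 0, K87K, K87Q and K87R against hy5 21, 48 and 46, the lines against K87K 43 and 42, K87Q against K87R 11, and the lines against WT 14, 48 and 41. With the replicate block (paired by number), HL in WT gave 8 and in hy5 7, hy5 against WT 24 in GL and 0 in HL, the lines against hy5 24, 48 and 45, against K87K 44 and 40, K87Q against K87R 12, and the lines against WT 16, 49 and 43. Outside the genotype contrast under HL, same-numbered deviations correlated at only -0.126 to 0.134, and the labels give no pairing there either. Without both HL replicate 3 libraries, the interaction gave 22, hy5 against WT 3 in GL and 27 in HL, K87K and K87Q against hy5 13 and 44, the lines against K87K 43 and 39, K87Q against K87R 8, and the lines against WT 5, 45 and 34. DESeq2 gave 5 for the interaction, 11 for hy5 against WT in HL, 31 and 24 for the lines against K87K, 1 for K87K and 25 for K87R against WT. Without scaling, K87Q gave 8 against K87K and 13 against WT. Leaving out 1 library gave ranges of 17 to 35, 28 to 44, 0 to 12, 0 to 1, 1 to 18, 0 to 1, 15 to 36, 15 to 32, 7 to 32, 6 to 24, 0 to 0, 0 to 2, 11 to 31 and 8 to 24 in the order above. The cause was not tested in any of these cases.

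No called member changed sign under any of these alternatives; of the values for single members 4482 kept their call and 736 lost it. Depth limits the lowest genes: at about 15.1 counts per CPM, members below 1 CPM such as IAA30 rest on few counts per library.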
